A study of Rosa chinensis with 4 samples.

Results

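The H3K9ac peaks described here lie in the megabases of the rose genome that hold the most peaks. Chromosomes 1 to 7 of the assembly RchiOBHm were divided into windows of 1 Mb, leaving out the last incomplete window of each. Peaks were taken from windows that held 160 or more summits, a summit being the base of highest enrichment in a peak. This gave 56 of 500 complete windows (11.2%) and 10273 of the 46391 peaks on the chromosomes (22.1%), out of 46596 in the deposited list. All 10273 were kept in every count below unless a location, height or width class is named. Because the windows were chosen by their number of peaks, the number itself, the spacing of summits and the bases covered are given as descriptions.

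The series profiled histone marks in petals of Rosa chinensis, the China rose, taken when flowers began to open, per the labels, although the names of the peaks in the deposited list hold the word flower. Chromatin immunoprecipitation and sequencing (ChIP-seq) used an antibody to H3K9ac or to H3K27me3, and each had an input library made without antibody, so that there were 4 samples of 1 library each. The results below come from the H3K9ac library, and the remaining 3 samples were not analysed here. With 1 library there are no replicates, so no test across plants was possible and every interval is a 95% interval for counting error, in which neighbouring peaks and genes are treated as independent although they are not.

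Histone H3 acetylated at lysine 9 is laid down by histone acetyltransferases and removed by deacetylases. In plants it marks the beginning of transcribed genes, where acetylation loosens the hold of the histone tail on DNA. H3K27me3 is the counterpart laid down by Polycomb complexes on silenced genes.

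The peak-rich windows lay near chromosome ends and on a single side of nearly every chromosome. Of the 56 windows, 27 had their centre within 5 Mb of the nearer chromosome end (48.2%), against 39 of the 444 other windows (8.78%). Within 15 Mb there were 55 of 56 peak-rich windows (98.2%) and 151 of 444 other windows (34.0%). The 8 peak-rich windows of chromosome 1, the 10 of chromosome 4 and the 12 of chromosome 6 all lay beyond the midpoint of the sequence. The 7 of chromosome 3, the 3 of chromosome 5 and the 8 of chromosome 7 all lay before it, and chromosome 2 had 7 before and 1 beyond. Chromosome 6 contributed 12 windows and 34.6% of its peaks, whereas chromosome 5, the longest, contributed 3 windows and 7.54% of its peaks.

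Peak-rich windows were often neighbours. They formed 23 stretches, of which 9 were single windows, and 47 of the 56 windows adjoined another. The longest stretch ran on chromosome 6 from 59000001 to 66000000, with 1403 summits and 803 protein-coding genes, 80.1% of which had a peak at an end. The next ran on chromosome 4 from 61000001 to 67000000, with 1177 summits and 664 genes, 77.6% with a peak. Chromosomes 7 and 2 each opened with a stretch of 5 windows from their first base, holding 902 summits on chromosome 7 and 896 on chromosome 2.

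**Figure D1:**
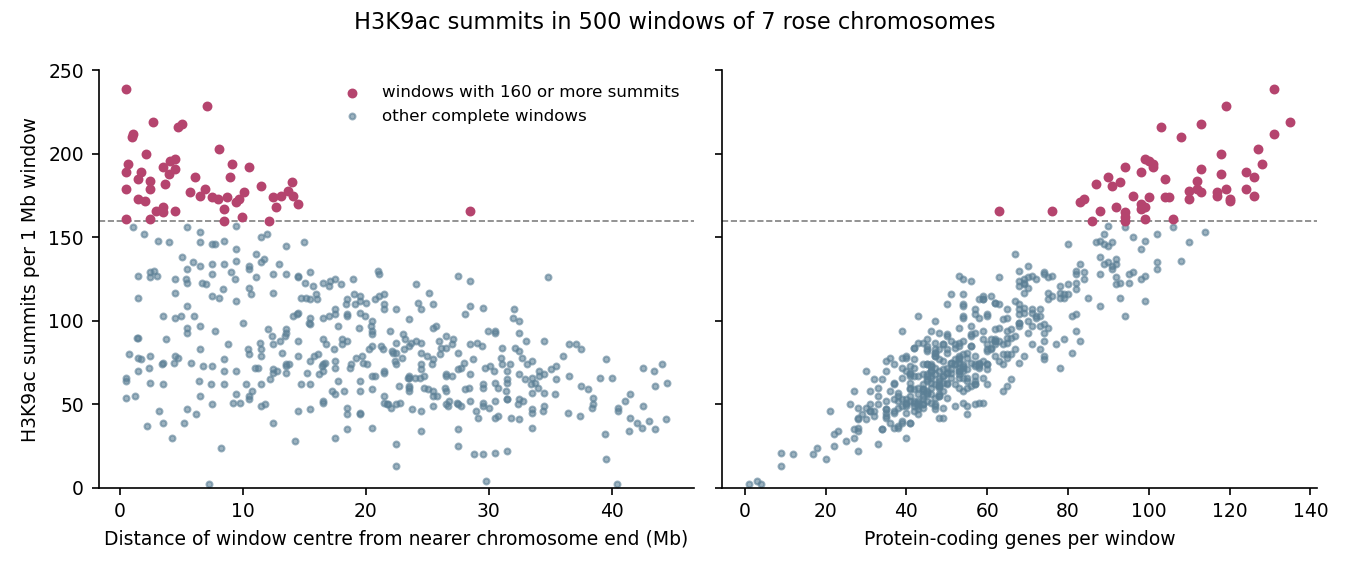
Summits per 1 Mb window (vertical axis) against the distance of the window centre from the nearer chromosome end in Mb (left) and against the number of protein-coding genes (right), with 1 point per window. The 56 windows at or above the dashed line at 160 summits lie within 15 Mb of an end with 1 exception, and all hold 63 or more genes.

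These megabases were rich in genes. Peak-rich windows held 63 to 135 protein-coding genes, with a median of 104 (interval 99 to 112), against 1 to 114 with a median of 53 (50 to 54) in the other windows. The gap between neighbouring protein-coding genes had a median of 2371 bp in peak-rich windows and 6878 bp in other windows. Gaps under 1 kb made up 33.2% in peak-rich and 21.2% in other windows, and gaps over 10 kb made up 19.7% in peak-rich and 41.3% in other windows. Genes themselves were of similar median length, at 2695 bp (2643 to 2751) in peak-rich windows and 2781 bp (2747 to 2813) in other windows. Long genes were less frequent in peak-rich windows, with a 90th percentile of length of 5959 bp against 7394 bp in other windows. Across the 56 windows the number of summits was correlated with the number of genes (Pearson r 0.527, Spearman rho 0.529), over a range of summits that the choice of windows had already narrowed. Over all 500 windows the correlation was stronger (Pearson r 0.910, Spearman rho 0.878).

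Single peak-rich windows had from 1.39 to 2.63 summits per protein-coding gene. Together they had 1.74, against 1.45 in other windows, and since windows were chosen by their summits, a higher ratio was given by the choice. Of the 30 windows with at least 100 and fewer than 120 genes, 23 were peak-rich, and 7 were not. All 11 windows with 120 or more genes were peak-rich. The most gene-dense window outside the set lay on chromosome 5 from 6000001 to 7000000, with 153 summits on 114 genes, of which 64.9% had a peak at an end.

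The window with the most peaks was the first Mb of chromosome 5, where 103 of 131 protein-coding genes had a peak at an end and peaks covered 14.5% of the bases. On chromosome 6 from 62000001 to 63000000, 105 protein-coding genes (88.2%) had a peak at an end, and from 64000001 to 65000000 it was 94 of 113. Chromosome 4 from 64000001 to 65000000 held the most genes of any window, 135, of which 107 had a peak at an end. The highest share of such genes among the 56 was 92.1%, on chromosome 6 from 60000001 to 61000000 with 93 genes, and the lowest was 60.7%, on chromosome 3 from 2000001 to 3000000 with 68 of 112. Peak-rich windows thus ranged by more than 30 percentage points in this measure, and its correlation with the number of genes over the 56 windows was 0.0630 (Pearson). Over all 500 windows that correlation was 0.574, and the choice by summits had narrowed the range of the 56.

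One peak-rich window stood far from a chromosome end, on chromosome 7 from 28000001 to 29000000, and differed from the others in where its peaks lay. It held 166 summits on 63 protein-coding genes, the fewest genes and the most summits per gene of the 56 windows. Of its summits, 51 (30.7%, interval 23.8 to 38.3) lay at protein-coding gene ends, the lowest share in the set, and 58 (34.9%) lay more than 1 kb from any annotated gene, the highest. Its median fold enrichment was 4.22 and its median width 424 bp, inside the ranges of the other peak-rich windows.

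Summits in peak-rich windows lay mostly at the ends of protein-coding genes. A summit was counted there when it fell inside such a gene, at most 1 kb from either of its ends. This held for 5722 of 10273 summits in peak-rich windows (55.7%, 54.7 to 56.7) and 16826 of 35671 in other windows (47.2%, 46.7 to 47.7), against 49.2% for all peaks on the chromosomes. The difference was 8.53 percentage points (7.44 to 9.62), and the share was higher in peak-rich windows on 7 of 7 chromosomes, at 51.3 to 60.5% against 43.6 to 50.5%. In windows of like gene number the difference had the opposite sign. Among windows with 80 to 99 genes the share was 51.7% in peak-rich and 54.0% in other windows, a difference of −2.30 points (−4.38 to −0.213), and among those with at least 100 and fewer than 120 genes it was 56.8% in peak-rich and 59.01% in other windows (−2.23 points, −5.61 to 1.14).

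The other locations shifted as well. More than 1 kb from any gene lay 13.3% of summits in peak-rich windows (12.6 to 13.97) and 19.7% in other windows (19.2 to 20.1). Genes other than protein-coding ones held 5.16% in peak-rich and 9.70% in other windows. Gene interiors deeper than 1 kb held 15.5% in peak-rich and 14.3% in other windows, and the first 1 kb outside genes held 10.3% in peak-rich and 9.12% in other windows.

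The sequence of the windows differed in the same sense. Inner gene ends made up 18.6% of the bases of peak-rich windows and 9.51% of the bases of other windows, so summits were 3.0004 times as frequent there as their share of bases in peak-rich windows and 4.96 times in other windows. Space more than 1 kb from genes made up 44.1% of peak-rich and 61.3% of other windows. Counted per Mb of each kind of sequence, peak-rich windows had more summits everywhere. There were 550.4 per Mb of gene-end sequence in peak-rich windows against 398.6 in other windows, a smaller ratio than for deep gene interiors, with 175.9 against 97.7, or for space far from genes, with 55.3 against 25.8. The windows were chosen for many summits, so a higher density over whole windows was given by the choice. The division among locations was not fixed by it, but was not free of it either. Over all 500 windows the number of summits was correlated with the number of protein-coding genes (Pearson r 0.910).

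**Figure D2:**
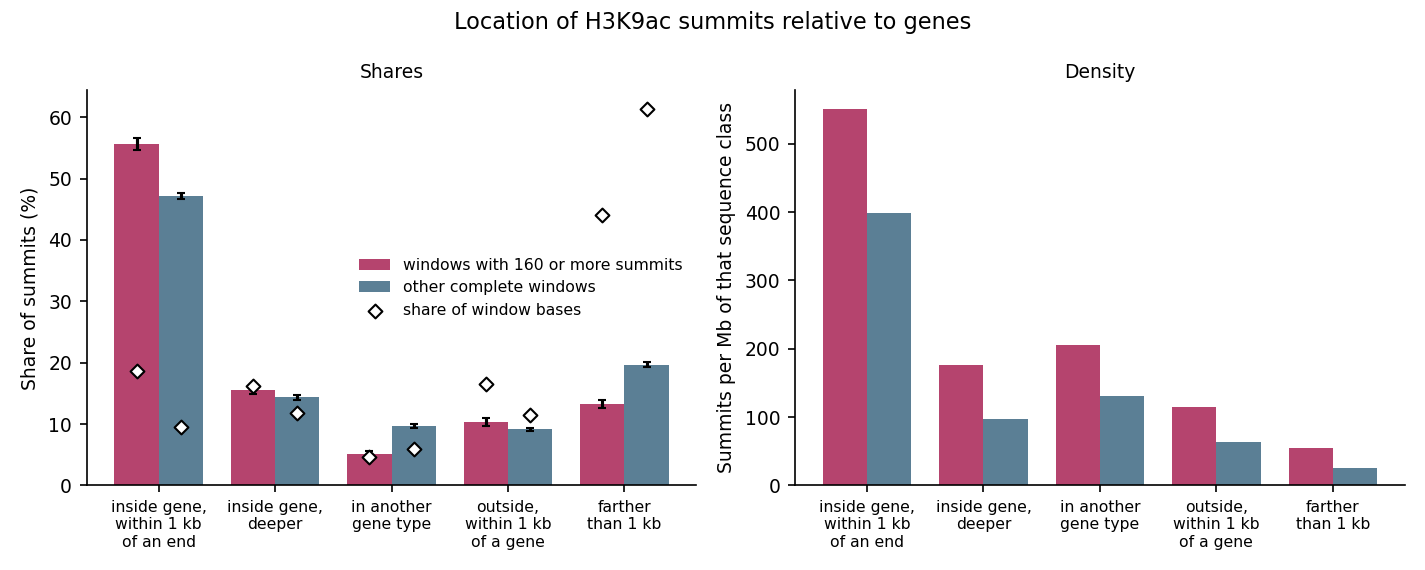
Left, share of summits (%) in 5 locations for windows with 160 or more summits and for other complete windows, with 95% exact binomial intervals and diamonds for the share of window bases in each location. Right, summits per Mb of each kind of sequence, which is higher in peak-rich windows in all 5, at 550.4 against 398.6 for gene ends and 55.3 against 25.8 far from genes.

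The peaks of these megabases were about as high and as wide as elsewhere. Fold enrichment, the authors' value for each peak, is the number of fragments over the summit divided by the local background, each with 1 added. Its median was 4.53 (4.43 to 4.61) in peak-rich windows and 4.74 (4.69 to 4.80) in other windows, and it was lower in peak-rich windows on 7 of 7 chromosomes. The upper part of the distribution went the other way, with a 90th percentile of 12.9 in peak-rich and 11.8 in other windows. Median width was 458 bp (447 to 472) in peak-rich and 443 bp (437 to 449) in other windows. Peaks of 1.5 kb or more made up 5.66% (5.22 to 6.12) in peak-rich and 3.81% (3.61 to 4.01) in other windows.

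Depth behind a peak was similar, with a median of 21 fragments over the summit in peak-rich windows (range 9 to 208) and 22 in other windows (9 to 282). Fewer peaks stood on the lowest background of the library, 12.3% in peak-rich and 22.1% in other windows. The part of this background difference in the lower median fold was not tested. At gene ends alone, the median fold was 6.03 (5.83 to 6.22) in peak-rich and 5.91 (5.85 to 6.03) in other windows, and the intervals overlapped. Farther than 1 kb from genes it was 4.20 (4.11 to 4.35) in peak-rich and 4.47 (4.43 to 4.57) in other windows.

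Peaks with more fragments were more often at gene ends, up to a point. Among peaks with 9 to 14 fragments over the summit, 44.5% lay at gene ends in peak-rich windows and 37.8% in other windows. At 60 to 79 fragments they were 88.0% (85.4 to 90.3) in peak-rich and 73.4% (71.4 to 75.4) in other windows, and from 80 to fewer than 150 fragments 82.2% (77.7 to 86.1) in peak-rich and 58.6% (55.0 to 62.1) in other windows. Peak-rich windows were thus higher in each of these height classes, in which gene number was not matched. In windows of 80 to 99 genes the share over all heights was 51.7% in peak-rich and 54.0% in other windows. At 150 or more fragments there were 8 peaks in peak-rich windows, none of them at a gene end, and 3.90% of 77 peaks in other windows were at one.

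**Figure D3:**
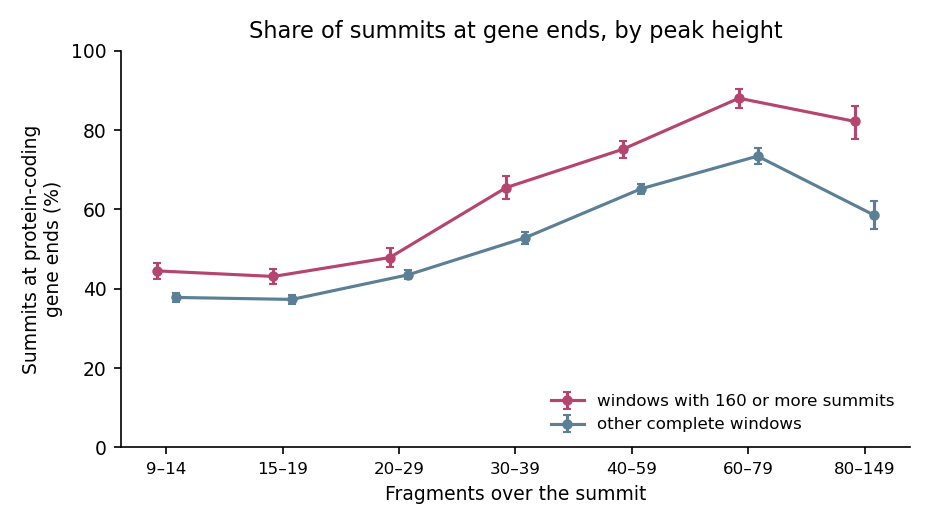
Share of summits at protein-coding gene ends (%) against the number of fragments over the summit, with 95% exact binomial intervals. Windows with 160 or more summits are above other complete windows in all 7 classes, by 44.5% against 37.8% in the lowest and 82.2% against 58.6% in the highest shown. The number of genes per window is not matched.

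Summits kept the same place within genes. Around the 5140 ends of protein-coding genes of 3 kb or more in peak-rich windows, the fullest 100 bp step was 200 to 300 bp inside the gene, with 667 summits or 129.8 per 1000 ends. It was the same step in other windows, with 100.4 per 1000 ends. Between 800 and 900 bp outside the end there were 32.5 summits per 1000 ends in peak-rich windows and 16.6 in other windows. For gene-end peaks the median distance of the summit inside the end was 349 bp (343 to 355) in peak-rich and 348 bp (344 to 352) in other windows.

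**Figure D4:**
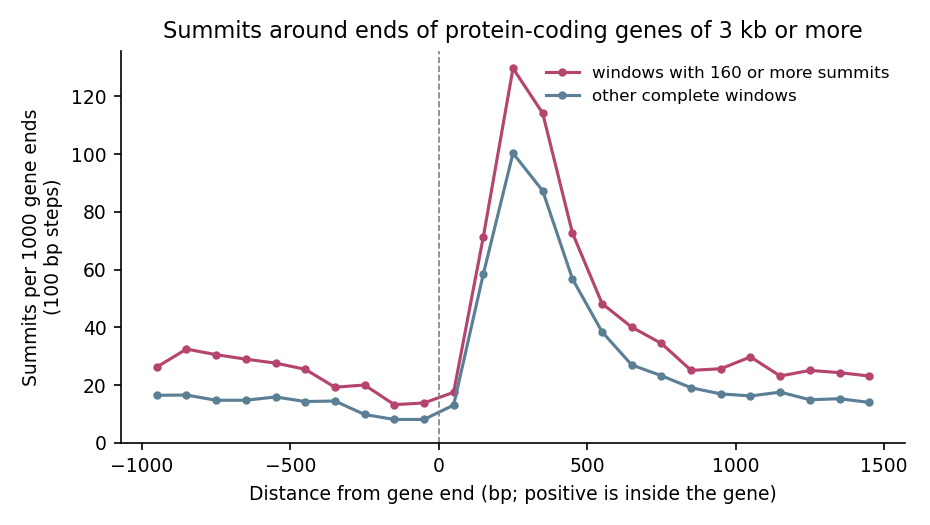
Summits per 1000 ends of protein-coding genes of 3 kb or more, in 100 bp steps from 1000 bp outside to 1500 bp inside the gene. Both curves are highest at 200 to 300 bp inside, at 129.8 in windows with 160 or more summits and 100.4 in other complete windows.

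In wide gene-end peaks the summit mostly lay toward the outer edge, to a like extent in both kinds of window. Of 1454 gene-end peaks of 1000 bp or more in peak-rich windows, 1249 (85.9%, 84.0 to 87.7) had the summit closer to their outer than to their inner edge, and in other windows it was 3024 of 3526 (85.8%, 84.6 to 86.9). A gene-end peak is by definition one with its summit at most 1 kb inside the gene, which leaves out wide peaks with a summit farther in, so these shares are set in part by the definition. These peaks reached a median of 1291 bp into the gene in peak-rich windows and 1278.5 bp in other windows. They ran past the end into flanking sequence in 43.9% (41.4 to 46.5) of cases in peak-rich and 38.97% (37.4 to 40.6) in other windows.

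More genes carried the mark in peak-rich windows. A gene was counted as marked when a peak reached any base between 500 bp outside and 1000 bp inside of an end. In peak-rich windows 4485 of 5911 protein-coding genes were marked (75.9%, 74.8 to 77.0), and in other windows 14434 of 24599 (58.7%, 58.1 to 59.3), against 62.1% of all such genes on the chromosomes. Both ends were marked in 2627 genes (44.4%, 43.2 to 45.7) of peak-rich windows and 6309 (25.6%, 25.1 to 26.2) of other windows, against 29.4% of all. Neither end was marked in 1426 genes (24.1%) of peak-rich and 10165 (41.3%) of other windows. More peaks leave fewer genes unmarked wherever they fall, and peaks covered 11.3% of the bases in peak-rich and 4.58% in other windows, so these shares follow in part from the choice of windows. In windows of 80 to 99 genes the difference in marked genes was 9.35 points (6.93 to 11.8), in place of 17.2 (15.9 to 18.5) over all windows.

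The difference was present in every class of gene length and was largest in the shortest genes. Among genes of 114 to 1358 bp, the shortest of 5 classes of like size, 51.2% (48.1 to 54.3) were marked in peak-rich and 28.9% (27.7 to 30.2) in other windows. The stretches searched take in the whole of such a gene and 500 bp on each side, so a peak of a neighbour can count for it. As for all genes, the difference follows in part from the choice of windows. From 2270 to 3333 bp it was 83.1% (81.1 to 85.1) in peak-rich and 64.2% (62.8 to 65.5) in other windows, and from 5076 bp upward 86.2% (83.8 to 88.4) in peak-rich and 74.7% (73.5 to 75.8) in other windows. Genes with a single RefSeq transcript model were marked in 71.8% of cases in peak-rich and 51.6% in other windows, and those with 5 or more models in 88.9% in peak-rich and 81.3% in other windows.

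**Figure D5:**
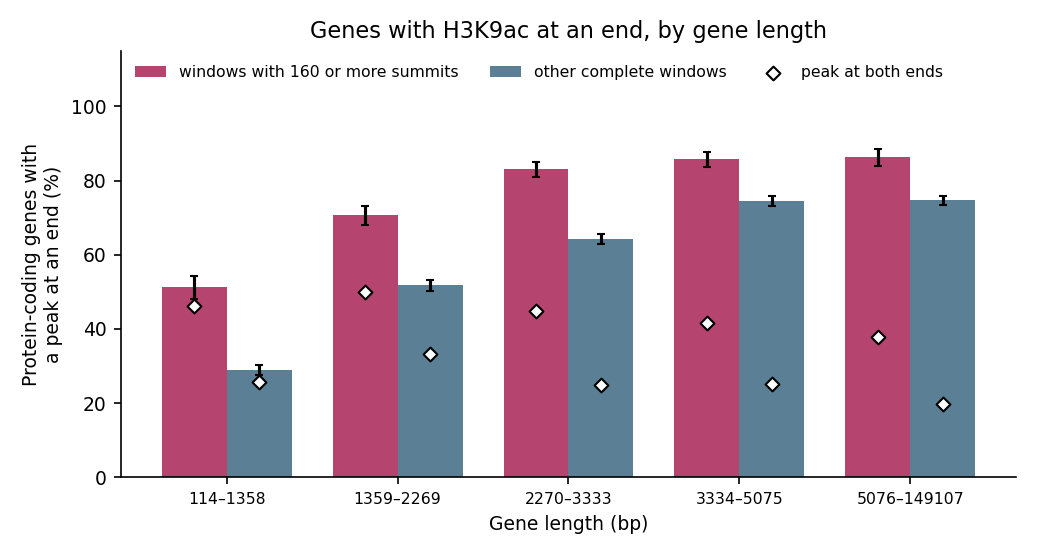
Share of marked protein-coding genes, those with a peak at either end (%), in 5 classes of gene length, for windows with 160 or more summits and for other complete windows, with 95% exact binomial intervals and diamonds for genes with a peak at both ends. The bars differ by 51.2% against 28.9% in the shortest class and 86.2% against 74.7% in the longest.

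Peaks at both ends of a gene were not found in short genes alone. In genes of 3 kb or more, where the inner stretches of the ends are separate, both ends were marked in 1055 of 2570 (41.1%, 39.1 to 43.0) in peak-rich windows and 2561 of 11354 (22.6%, 21.8 to 23.3) in other windows. A single end was marked in 44.7% (42.8 to 46.7) in peak-rich and 51.3% (50.4 to 52.3) in other windows. Each stretch also reaches 500 bp outside the gene, so a peak of a neighbouring gene can mark an end. Neighbours were closer in peak-rich windows, where 33.2% of gaps were under 1 kb against 21.2% in other windows. A single wide peak can also mark both ends of a gene, and peaks of 1.5 kb or more made up 5.66% in peak-rich and 3.81% in other windows. The part of either in the difference was not tested. The annotation used here has no strand, so a start could not be told apart from an end.

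Facing ends of neighbouring genes both held a summit more often in peak-rich than in other windows, as single facing ends did. A summit within the inner 1 kb is a stricter measure than the marking of genes used above. Among pairs of genes of at least 2 kb separated by under 1 kb, both facing ends held a summit within their inner 1 kb in 265 of 912 pairs (29.1%, 26.1 to 32.1) in peak-rich windows and 372 of 2162 (17.2%, 15.6 to 18.9) in other windows. For gaps of 1 to 5 kb it was 300 of 914 (32.8%, 29.8 to 36.0) in peak-rich and 533 of 2435 (21.9%, 20.3 to 23.6) in other windows. Pairs 5 kb or more apart gave 29.4% (26.3 to 32.6) in peak-rich and 16.9% (15.9 to 17.9) in other windows, so the intervals in peak-rich windows overlapped across the 3 distances. Of single facing ends in pairs under 1 kb apart, 52.2% held a summit in peak-rich and 39.4% in other windows, and these shares squared come to 27.2% in peak-rich and 15.5% in other windows. For gaps of 1 to 5 kb the single share in peak-rich windows was 57.1%, with a square of 32.6%, and for longer gaps 52.2%, with a square of 27.3%. In peak-rich windows each square lay inside the interval of the share of pairs with a summit at both ends, though below the share itself. In other windows the squares from the shortest to the longest gaps were 15.49%, 19.15% and 15.89%. Each lay below the interval there, with lower bounds of 15.64%, 20.26% and 15.93%. Peak-rich windows had fewer pairs and wider intervals, so whether the 2 kinds of window differ in this was not tested. A single peak bridged a gap of under 1 kb in 44 pairs (4.82%, 3.53 to 6.42) of peak-rich and 78 pairs (3.61%, 2.86 to 4.48) of other windows. Peaks that touched the end stretches of more than 1 gene made up 9.80% (9.23 to 10.4) in peak-rich and 4.80% (4.58 to 5.03) in other windows.

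Peaks stood close together, which the choice of windows requires. The median distance between adjacent summits was 2338 bp (2259 to 2415) in peak-rich and 4501 bp (4396 to 4607) in other windows. Distances under 1 kb were 22.5% in peak-rich and 17.9% in other windows, a smaller contrast than for distances of 10 kb or more, at 14.5% in peak-rich and 32.1% in other windows.

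Of the gene types compared, snoRNA and snRNA genes differed most. Of 64 snoRNA genes in peak-rich windows, whose products guide modification of ribosomal RNA, 51 were marked (79.7%, 67.8 to 88.7), against 113 of 385 in other windows (29.4%, 24.8 to 34.2) and 36.8% on all chromosomes. The 51 genes shared 37 peaks in 17 windows, and the 113 of other windows shared 67 peaks in 52 windows, so neither set is independent. Of the 48 whose midpoint lay outside protein-coding genes, 37 were marked (77.1%), against 78 of 274 in other windows (28.5%). Genes for snRNAs, the RNAs of the spliceosome, were marked in 14 of 22 cases in peak-rich windows (63.6%, 40.7 to 82.8) and 19 of 108 in other windows (17.6%, 10.9 to 26.1), against 25.4% of all. The 14 marked snRNA genes lay in 7 windows. Genes of around 100 bp lie wholly within the stretch searched, so a peak of a neighbour can count for them. As for protein-coding genes, the marked shares of all these gene types follow in part from the choice of windows.

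Genes for tRNAs, which carry amino acids to the ribosome, were frequent in these megabases but marked to a like extent. Peak-rich windows held 134 of 498 tRNA genes (26.9%) in 11.2% of the windows, or 2.39 per window against 0.811 in other windows. Protein-coding genes were also more frequent there, at 105.6 per window against 55.4 in other windows. Of the 134 tRNA genes, 68 were marked (50.7%, 42.0 to 59.5), against 167 of 360 in other windows (46.4%, 41.1 to 51.7) and 47.4% of all, a difference of 4.36 points with an interval from −5.55 to 14.3. Genes for long non-coding RNAs were marked in 314 of 591 cases in peak-rich windows (53.1%, 49.0 to 57.2) and 2245 of 5566 in other windows (40.3%, 39.04 to 41.6), against 41.6% of all. Their number per window was lower in peak-rich windows, 10.6 against 12.5. Pseudogenes were marked in 144 of 282 cases in peak-rich windows (51.1%, 45.1 to 57.0) and 710 of 2293 in other windows (31.0%, 29.1 to 32.9), against 33.2% of all. Of genes in the RefSeq class misc_RNA, 6 of 11 were marked in peak-rich windows (54.5%, 23.4 to 83.3) and 36 of 93 in other windows (38.7%, 28.8 to 49.4), against 40.4% of all. No gene for ribosomal RNA had its midpoint in a peak-rich window, whereas 260 of 263 lay in other windows, and of all 263 just 4.56% were marked.

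The strongest peaks at protein-coding genes of the peak-rich windows all had their summits 176 to 480 bp inside a gene end. Coordinates are on RchiOBHm, and the genes are known in the table used here by identifier. LOC112176786 on chromosome 7 from 3811200 to 3814917 carried a peak of fold 29.8 (interval 25.1 to 35.3, with 136 fragments at the summit) that was 2096 bp wide. LOC112197502 on chromosome 4 from 62774683 to 62778673 followed with fold 28.4 (23.8 to 33.7), in a window of 216 summits that is also among the 10 fullest of the 500. LOC112187421 on chromosome 2 from 12807980 to 12809824 had 27.1 (22.5 to 32.3), LOC112200509 on chromosome 4 had 26.7, and LOC112192462 on chromosome 3 had 26.3. LOC112180578 (26.3) and LOC112177114 (25.8) lay on chromosome 7, LOC112200972 (26.1) and LOC112197392 (25.8) on chromosome 4, and LOC112191067 (25.3) on chromosome 1. Their intervals overlapped, so the order among these 10 genes was not resolved at this depth.

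The strongest peaks at protein-coding genes were also looked up in the 10 windows with the most summits. In the first Mb of chromosome 5, the window with the most summits, it had fold 24.3 (19.8 to 29.6), at LOC112165674 from 741129 to 743170. The 5 fullest windows of chromosome 6 had theirs at LOC112170090 (25.1), LOC112172270 (24.2), LOC112172271 (21.6), LOC112171967 (22.9) and LOC112170025 (21.95). Among the other windows of the 10 fullest, the gene was LOC112199910 (21.4) on chromosome 4, LOC112183995 (22.9) on chromosome 1 and LOC112187787 (24.98) on chromosome 2. The remaining window of the 10 was that of LOC112197502 (28.4), and the chromosome 1 window also held a higher peak, of fold 29.7, in the lncRNA gene LOC112187305. Over the 56 windows, a set with a narrowed range of summits, the number of summits and the median fold had a weak correlation (Pearson r −0.106, Spearman rho 0.0304). Over all 500 windows the correlation was negative (Pearson r −0.382, Spearman rho −0.443).

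Of the 5 highest peaks of any location in peak-rich windows, that of LOC112176786 lay at a protein-coding gene end and the other 4 did not. The highest, with fold 31.8 (26.7 to 37.6), lay on chromosome 4 from 63927252 to 63927920, 2728 bp from the lncRNA gene LOC112200225. Inside the lncRNA gene LOC121051246 on chromosome 1 a peak of 464 bp had fold 30.7 (26.7 to 35.2) and the most fragments at a summit in the set, 208. Another of fold 29.7 lay inside the lncRNA gene LOC112187305 on chromosome 1, 166 bp from its end. A peak of fold 30.4 lay 882 bp outside LOC112172890, a protein-coding gene on chromosome 6 from 57918243 to 57920656. Peak-rich windows held 22.4% of all peaks in complete windows. Of the 10 peaks with the highest fold there they held 1, of the 100 highest 27 (interval 18.6 to 36.8%), which includes that share, and of the 1000 highest 316 (31.6%, 28.7 to 34.6), which lies above it.

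The widest peaks covered whole genes or large parts of them. On chromosome 6 a peak of 5274 bp covered 4931 of the 5050 bp of LOC112170364, with fold 15.03. Also on chromosome 6, a peak of 4957 bp from 56612229 to 56617185 took in the short genes LOC112171950 (853 bp) and LOC112171949 (776 bp) entirely, with its summit in LOC112171949 and fold 22.4. LOC112180898 on chromosome 7 lay entirely under a peak of 4955 bp with fold 18.9, and the 3021 bp of LOC112196564 on chromosome 4 under one of 4404 bp with fold 21.8. LOC112198246 on chromosome 4, a gene of 8009 bp, was covered over 4273 bp, at fold 13.5. Both genes on chromosome 4 lay in the window from 62000001 to 63000000, where peaks covered 14.8% of the bases, the most of the 56 windows.

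The position near chromosome ends was shared by windows that were not peak-rich. Within 15 Mb of an end there were 151 such windows, with a median of 90 summits and 66 protein-coding genes. In these windows 48.5% (47.7 to 49.3) of summits lay at gene ends and 60.2% (59.2 to 61.2) of genes were marked. In the 55 peak-rich windows within 15 Mb, with a median of 104 genes, it was 56.1% (55.1 to 57.1) of summits and 76.0% (74.9 to 77.1) of genes. Neither gene number nor distance inside the 15 Mb was matched. Within 5 Mb lay 27 of these peak-rich windows and 39 of the 151 others. In the 293 other windows farther in, 46.3% (45.6 to 47.0) of summits lay at gene ends and 57.6% (56.8 to 58.4) of genes were marked.

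The threshold of 160 summits cut through a continuous distribution. Just inside it, chromosome 6 from 57000001 to 58000000 and chromosome 7 from 8000001 to 9000000 had 160 summits each. Just outside it, chromosome 2 from 9000001 to 10000000 had 157. The 12 windows with fewer than 170 summits in the set had a median fold of 4.49, a gene-end share of 51.7% and 73.6% of genes marked, and the 7 windows outside it with 150 or more had 4.53, 53.6% and 70.2%.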

How the data were processed

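Per the submitters' processing notes, FastQC, Trim Galore, Bowtie2, MACS2 and SICER were used. The sources used here give no versions or settings for them, nor how duplicate or multiply placed reads were handled. The deposited narrowPeak list on RchiOBHm holds, for the single H3K9ac library, peak positions, the fold (a ratio of summit fragments to local background), a p-value and a q-value as −log10 values, and a score, which in 99.996% of lines was 10 times the −log10 q-value with decimals dropped. The list on RcHzRDP12 was not used here. The lowest deposited −log10 q-value was 1.31, which corresponds to a q-value cut-off of 0.05.

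Positions are counted from 1. Fragments at each summit were recovered as the whole number that gives both the fold and the Poisson p-value (tolerance 0.002 in −log10 p), for 46389 of 46391 peaks. Genes came from the RefSeq table of RchiOBHm-V2 (41022 on the chromosomes, 30798 protein-coding), which has no strand, exons or product names. As a check of the build, 41.1% of gene ends in peak-rich windows had a summit within 500 bp, and 18.3% after a shift of 20 kb. A gene belongs to the window with its midpoint, and 447 peaks in incomplete last windows entered no comparison. Intervals are exact binomial (shares, medians by order statistics), exact Poisson (folds) or normal approximations (differences of shares), and cover counting error only. The windows, lists and measures were chosen with earlier results of these data known. Named genes were the 10 strongest peaks within 500 bp of a protein-coding gene, the strongest such gene in each of the 10 windows with most summits, genes under the 5 widest peaks and the gene nearest to each of the 5 highest peaks. The planned gene lists by product name, promoter motifs, start sites and printed sequences needed tables not used here. Alternatives changed the window threshold, size and offset, the peak threshold, the size of a gene end and the overlap. Functions were tested on simulated data. Scripts ran on Python 3.11.15 with matplotlib 3.10.9, scipy 1.17.1, pandas 2.3.3 and numpy 2.4.6.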

Additional observations from a re-analysis of the deposited data

How the results depend on the processing

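Of 75 alternative values for 11 results, 34 stayed within the interval of the reported value, or within 1.5 times for the number of peaks, 39 moved and 2 reversed. Both reversals came from comparing windows of like gene number, a comparison chosen after the values were seen: the difference in gene-end share was −2.30 points at 80 to 99 genes and −2.23 at 100 or more but fewer than 120, in place of 8.53. The difference in marked genes kept its sign there, at 9.35 and 9.88 points. A threshold of 180 summits left 26 windows and 5155 peaks, a gene-end share of 56.97%, 79.5% of genes marked (difference 19.3 points), a median width of 479 bp, a spacing of 2214 bp and 12.4% of bases covered. A threshold of 140 gave 73 windows, 74.7% of genes marked, a spacing of 2420 bp and 10.7% covered. Windows shifted by 500 kb gave 46 windows, 14.5% of summits far from genes and 11.5% covered. Windows of 500 kb with 80 or more summits gave 76.99% of genes marked (difference 18.8 points) and 11.6% covered. Peaks with a −log10 q-value of at least 10 in the same windows numbered 4553, with 71.2% at gene ends (difference 12.9 points), 10.8% far from genes, 59.2% of genes marked, median fold 9.04, width 882 bp, spacing 6917 bp and 7.98% covered. Peaks of fold 5 or more numbered 4626, with 70.9% at gene ends (difference 12.5 points), 10.8% far from genes, 59.7% of genes marked, median fold 8.93, width 874 bp, spacing 6819 bp and 8.04% covered. These 2 filters keep the taller peaks, so higher medians follow from their construction. Gene ends of 500 bp in place of 1 kb held 39.9% of summits (difference 5.94 points), stretches of 500 bp inside the gene gave 73.98% of genes marked, and 8.20% of summits lay more than 2 kb from genes. For the other moves the cause was not tested. No paired analysis was possible because there is 1 library per group. With 1 library, the spread between plants is unknown, and peaks under about 9 fragments were not detectable at this depth.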
